A study of Mus musculus with 18 samples.

Results

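The solute carrier (Slc) mRNAs with a listed m5C site were examined in RNA labelled as that of mouse cortical neurons after oxygen-glucose deprivation and reoxygenation (OGD/R). The genes were selected on the readout itself. A mouse RefSeq protein-coding gene was included if its symbol was Slc followed by a digit and if at least 1 site lay in one of its exons, on its strand, in any of 9 bisulfite libraries. This held for 56 of the 375 annotated Slc genes (14.9%), compared with 2607 of all 21013 protein-coding genes (12.4%), and these 56 genes carried 398 of the 18059 distinct mRNA sites. The other 319 Slc genes had no listed site, which gives no upper limit, since only sites past the limits on level and coverage are listed. Having a site is what chose the genes, so the number of genes with a site is a description and was not tested.

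All groups were cultures from the cerebral cortex of C57BL/6 mice at fetal day 18. Control cultures had no deprivation. OGD/R 1.5 h and OGD/R 3 h cultures were kept without glucose under hypoxia for 1.5 h or 3 h and then returned to normal medium and normal incubation for 24 h. Each group had 3 replicate libraries, made from total RNA after rRNA removal and a bisulfite step, which turns unmethylated cytosine into uracil and leaves m5C as cytosine. How complete this conversion was cannot be read from the site lists, and a cytosine left unconverted could be listed as well. Replicate coverage varied less than counting noise allows in the groups where it could be checked, OGD/R 3 h and control, so the 3 libraries of a group were counted as 1 sample. No difference between groups therefore has a test, and each SD describes the spread between libraries, with nothing to say that these came from separate cultures. Read depth is not given by the site lists. The number of mRNA sites per library was 3800 to 4146 in control, 3508 to 3749 in OGD/R 1.5 h and 4733 to 5269 in OGD/R 3 h.

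The labelled cell type was set beside the sites in marker genes. A listed site is no measure of expression, and an mRNA without one may still be present. The marker lists were chosen with earlier results of these data known. The paper identified its neurons by beta-III tubulin staining, with GFAP staining for astrocytes. None of 15 neuron markers, among them Tubb3, Map2 and Snap25, had a site in any library, while all 15 markers of intestinal epithelium had one. The intestinal markers together held 89 to 96 sites per control library, 61 to 64 per OGD/R 1.5 h library and 205 to 221 per OGD/R 3 h library. In OGD/R 1.5 h 13 of the 15 had a site. Fcgbp had 12, 13 and 10 sites in control and 72, 69 and 66 in OGD/R 3 h. Apoa1 had 22, 17 and 17 in control and 4, 5 and 5 in OGD/R 1.5 h. Other markers fell in OGD/R 3 h. Fabp1 had 4 in each control library and then 2, 1 and 2, and Lgals4 had 6, 6 and 7 and then 5, 2 and 3. Of 9 annotated erythroid markers 2, both beta-globin genes, had sites, and of 10 neutrophil and bone marrow markers 3 had sites, in both cases in OGD/R 3 h alone, with 31 and 21 sites in each of its libraries. Among the defining genes of these lists, Alas2, Elane and Mpo were listed with 0 sites. Slc genes typical of these cells were counted as well. Of 25 Slc genes of neurons and astrocytes, such as the vesicular glutamate transporter Slc17a7 and the glutamate transporter Slc1a2, 0 had a site, and of 12 Slc genes of erythroid cells and phagocytes 0 had one. Of 30 Slc genes of absorptive epithelium 17 had a site. The part of these marker values in the differences between groups was not tested. A difference in cell makeup, in RNA per cell, in methylation and in bisulfite conversion cannot be told apart here.

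Solute carriers are membrane proteins that move sugars, amino acids, ions, metals, vitamins and other small molecules across the plasma membrane and across the membranes of organelles, down a gradient or coupled to the flow of an ion. Several work as pairs of a heavy chain that brings the complex to the membrane and a light chain that forms the pore. The modification m5C is a methyl group on carbon 5 of cytosine, placed on mRNA mainly by NSUN2 and by other members of the NSUN family, and it has been tied to export, stability and translation of mRNA. In absorptive epithelium, apical carriers such as Slc5a1 and basolateral carriers such as Slc7a8 together take nutrients through the cell.

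The sequences around 8 sites are shown first because these were the only Slc sites called in all 3 groups. Each gives 10 nt on either side of the site, 5′ to 3′ on the strand of the mRNA, from the mm10 build, with the site in capitals.
Slc5a1, 3′ untranslated region, chr5:33162512-33162532, plus strand: acacgcagggCgtgggctcag
Slc5a1, 3′ untranslated region, chr5:33162463-33162483, plus strand: gtaagctgtgCtgagaaaagg
Slc43a2, 3′ untranslated region, chr11:75577248-75577268, plus strand: gaggtgtgttCtggtgtgtct
Slc16a10, stop codon region, chr10:40037259-40037279, minus strand: agtaagaacgCcggaggggag
Slc30a4, start codon region, chr2:122702464-122702484, minus strand: ccgcgctgccCtgaggagccc
Slc3a1, start codon region, chr17:85028412-85028432, plus strand: aagagctacaCagggtagaca
Slc44a4, stop codon region, chr17:34930181-34930201, plus strand: agattctgggCaagaagaatg
Slc35c2, stop codon region, chr2:165277204-165277224, minus strand: ggaactgctgCtccggagtag

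Most other sites were listed in 1 group only. A second set shows, for 3 genes, the site of highest mean score among those called in all 3 libraries of each group. In 7 of these 9 cases no other group listed the site. The Slc6a8 site of OGD/R 1.5 h was also called in all 3 libraries of OGD/R 3 h, and the Slc27a4 site of OGD/R 1.5 h in all 3 of control. The score is 10 times the call score of the site caller, cut to a whole number with a cap of 1000. It grows with coverage and with methylation level together, so that neither can be read from it.
Slc6a8 in control, chrX:73673449-73673469, plus strand: ccgccaccgcCgcccgagccg
Slc6a8 in OGD/R 1.5 h, chrX:73673442-73673462, plus strand: gctgcagccgCcaccgccgcc
Slc6a8 in OGD/R 3 h, chrX:73673768-73673788, plus strand: cctcacggccCcgctggggcc
Slc27a4 in control, chr2:29802858-29802878, plus strand: gctgtgtgtgCcccggggcgg
Slc27a4 in OGD/R 1.5 h, chr2:29802818-29802838, plus strand: cctacaaggaCgaggagtggg
Slc27a4 in OGD/R 3 h, chr2:29802875-29802895, plus strand: gcggccgatgCccccagcgca
Slc25a3 in control, chr10:91123617-91123637, minus strand: gcacgatggcCtgtcgggtcc
Slc25a3 in OGD/R 1.5 h, chr10:91123599-91123619, minus strand: tccccgcagtCccccagctcc
Slc25a3 in OGD/R 3 h, chr10:91117265-91117285, minus strand: tctgtggtctCtgtgctgaat

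Sites also lay in dense runs, in which each site was at most 10 nt from the next. Of the longest run of each gene in each group, 4 that held 5 or more sites within 30 nt are shown, with every cytosine listed in the group in capitals. In Slc27a4, 6 of the 7 cytosines of a 21-nt stretch before the start codon were listed in control. In Slc6a8, 5 of 9 cytosines of a 22-nt stretch were listed in control. In OGD/R 3 h, 7 of 17 cytosines of a 26-nt stretch of this gene were listed. In Slc39a1, 5 of 8 cytosines of a 22-nt stretch were listed in control. Whether the cytosines of a run were methylated or left unconverted was not tested.
Slc27a4, control, chr2:29802859-29802879, plus strand: CtgtgtgtgCcCCggggCggC
Slc6a8, control, chrX:73673418-73673439, plus strand: CCtcCggcagggCgagcagtcC
Slc6a8, OGD/R 3 h, chrX:73673633-73673658, plus strand: CCgtcgcccCgtcccCCggccCggcC
Slc39a1, control, chr3:90248213-90248234, plus strand: CgCgaggcCggaacCgagcgaC

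Sites in Slc mRNAs were fewest after 1.5 h and most numerous after 3 h of deprivation. Control libraries held 95, 97 and 88 Slc sites, OGD/R 1.5 h libraries 70, 77 and 76, and OGD/R 3 h libraries 123, 115 and 122. The means were 93.3 ± 4.73, 74.3 ± 3.79 and 120 ± 4.36 (SD, n = 3 libraries), and no library of a group reached the range of another group. The log2 ratio to control was 0.36 for OGD/R 3 h and -0.33 for OGD/R 1.5 h. All mRNA sites of a library were ordered in the same way, and 1 gene, Slc6a8, made up much of the excess after 3 h. Without it the log2 ratio of OGD/R 3 h to control was 0.17. When sites with a neighbour within 10 nt were left out, the log2 ratio of OGD/R 1.5 h to control was -0.00905.

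As a share of the mRNA sites of a library, Slc sites were 2.37 ± 0.0686% in control, 2.06 ± 0.0903% in OGD/R 1.5 h and 2.45 ± 0.121% in OGD/R 3 h (SD, n = 3 libraries). The OGD/R 1.5 h libraries lay below those of both other groups, whereas control and OGD/R 3 h overlapped. Counted over sites called in at least 2 libraries of a group, the difference of OGD/R 1.5 h from control was 0.0682 percentage points in place of -0.304. Fewer genes held these sites after deprivation, with 29, 34 and 28 Slc genes in the control libraries, 26, 25 and 27 in OGD/R 1.5 h and 25 in each OGD/R 3 h library. Sites per Slc gene with a site were therefore more numerous in OGD/R 3 h, at 4.8 ± 0.174, than in control, at 3.09 ± 0.216, or in OGD/R 1.5 h, at 2.86 ± 0.198. Over all mRNAs, a library held on average 1356 genes with a site in control, 1267 in OGD/R 1.5 h and 1129 in OGD/R 3 h, with 2.91 ± 0.0463, 2.84 ± 0.0929 and 4.35 ± 0.153 sites per gene.

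The sites were concentrated in few genes. The 12 genes with 10 or more sites held 271 of the 398 (68.1%), and Slc6a8, Slc5a1 and Slc27a4, with 59, 39 and 35, held 133 (33.4%). At the other end, 14 genes had 1 site each, and in 10 of these the site was listed in a single library. A site was listed in every one of the 9 libraries for 10 genes, but no single Slc site was, compared with 107 of the 17661 sites in other mRNAs. The genes at the limit of inclusion, with 1 site in 1 library, had scores from 0 in Slc34a2 to 99 in Slc28a2.

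**Figure D1:**
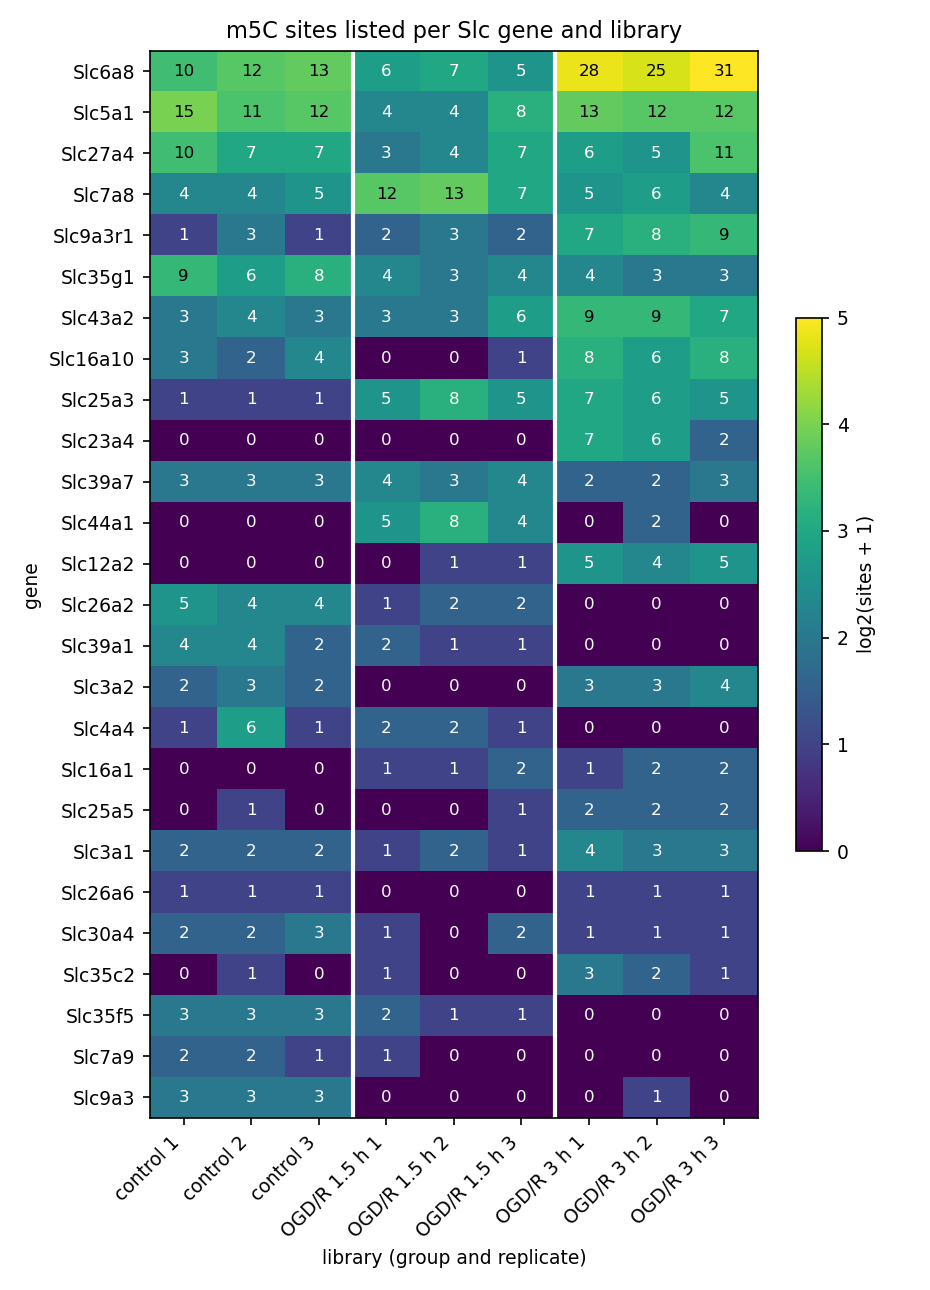
Number of listed m5C sites in Slc genes with 4 or more sites (rows), in the 9 libraries (columns); numbers are sites, and color is log2(sites + 1). Slc6a8 reached 25 to 31 sites in OGD/R 3 h, Slc7a8 and Slc44a1 had most sites in OGD/R 1.5 h, and Slc26a2, Slc39a1 and Slc35f5 had 0 sites in every OGD/R 3 h library.

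Carriers of amino acids and peptides formed the class with most sites, 126 in 12 of 71 annotated genes. Its libraries held 24, 29 and 27 sites in control, 24, 27 and 21 after OGD/R 1.5 h and 51, 46 and 52 after OGD/R 3 h. Control and OGD/R 1.5 h overlapped, and OGD/R 3 h lay above both. Without Slc6a8 the mean difference between OGD/R 3 h and control in this class was 6.67 sites in place of 23.

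Slc6a8, the creatine transporter, which the class takes in because its family is SLC6, lies on chromosome X (chrX:73673133-73682502, plus strand). It had 10, 12 and 13 sites in the control libraries, 6, 7 and 5 in OGD/R 1.5 h and 28, 25 and 31 in OGD/R 3 h. The groups did not overlap, with fewer sites than control after 1.5 h and more after 3 h. The mean difference of 16.3 sites between OGD/R 3 h and control became 7 at a score of at least 10 and 4 without sites that had a neighbour within 10 nt. For OGD/R 1.5 h, -5.67 became -3 and -2.67. Of its 59 sites, 39 lay in the 5′ untranslated region and 16 in the start codon region, and of the 38 sites in OGD/R 3 h, 33 were listed in no other group. Over all Slc genes, 151 of 185 OGD/R 3 h sites were listed in no other group. Slc6a8 held 16.7% to 24.5% of all mRNA sites on chromosome X in control, 10.2% to 16.3% in OGD/R 1.5 h and 23.4% to 28.4% in OGD/R 3 h, where control and OGD/R 3 h overlapped.

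Slc7a8, which encodes the light chain LAT2 of an exchanger of neutral amino acids, went the other way. It carried 4, 4 and 5 sites in control, 12, 13 and 7 after OGD/R 1.5 h and 5, 6 and 4 after OGD/R 3 h. Every OGD/R 1.5 h library exceeded every library of the other groups, while control and OGD/R 3 h overlapped. At a score of at least 10 the difference of OGD/R 1.5 h from control was 2 in place of 6.33. Its positions also differed, with 3 of 5 control sites in the 5′ untranslated region and 8 of 10 OGD/R 3 h sites in the CDS. Only 1 of these 10 was called in all 3 OGD/R 3 h libraries, compared with 4 of the 5 in control.

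The heavy chain that pairs with LAT2, Slc3a2 or 4F2hc, had 2, 3 and 2 sites in control, 0 in each OGD/R 1.5 h library and 3, 3 and 4 in OGD/R 3 h, all 7 distinct sites in the CDS. Slc7a5, which encodes LAT1, another light chain of 4F2hc, had 1 site in each OGD/R 1.5 h library and 0 elsewhere. Among the genes of the cystine and dibasic amino acid exchanger, the heavy chain gene Slc3a1 had 2 sites in each control library, 1, 2 and 1 in OGD/R 1.5 h and 4, 3 and 3 in OGD/R 3 h. At a score of at least 10 its difference between OGD/R 3 h and control was 0 in place of 1.33. Its light chain gene Slc7a9 had 2, 2 and 1 in control, 1 site in a single OGD/R 1.5 h library and 0 in OGD/R 3 h.

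Slc43a2, which encodes the neutral amino acid transporter LAT4, had 3, 4 and 3 sites in control, 3, 3 and 6 after OGD/R 1.5 h and 9, 9 and 7 after OGD/R 3 h. OGD/R 3 h lay above both other groups, which overlapped. It differed from the other leading genes in its regions, with 14 of 16 sites in the 3′ untranslated region. Its site at chr11:75577258, shown above, was listed in 7 libraries, with scores of 133, 69 and 124 in control, 152, 100 and 415 after OGD/R 1.5 h and 54 in OGD/R 3 h replicate 3. The remaining carriers of this class had 1 or 2 sites. Slc15a1, the peptide transporter PepT1, had 2 sites in OGD/R 3 h replicate 3 alone. Slc6a19, a neutral amino acid transporter of the brush border, had 1 site in control replicate 2 and 1 in OGD/R 3 h replicate 1. Slc7a7, a light chain of basolateral membranes, had 1 site, in 2 libraries of OGD/R 1.5 h. Slc7a15 had 1 site, listed in each control library and nowhere else.

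**Figure D2:**
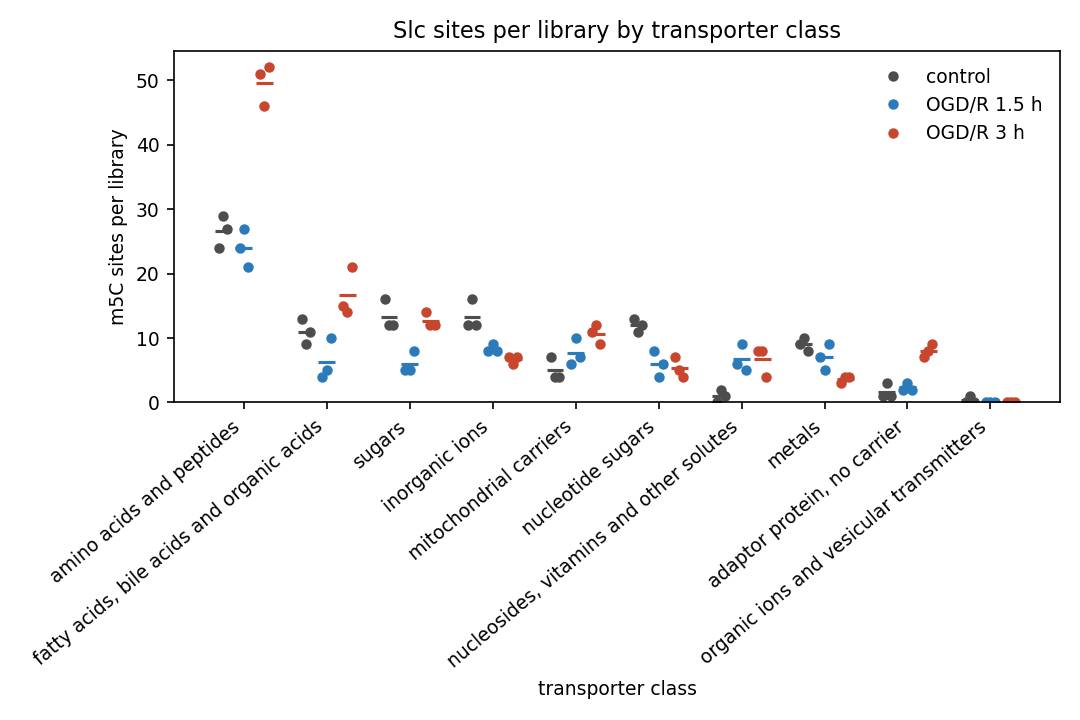
Number of listed sites per library in each transporter class; points are the 3 libraries of a group and horizontal lines their mean. Amino acid and peptide carriers held 46 to 52 sites in OGD/R 3 h libraries and 24 to 29 in control, while carriers of inorganic ions, metals and nucleotide sugars held fewer in OGD/R 3 h than in control.

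Sugar carriers held 44 sites in 4 of 34 annotated genes, 39 of them in Slc5a1, the sodium-coupled glucose transporter SGLT1 of the intestinal brush border (chr5:33104219-33162699, plus strand). Slc5a1 had 15, 11 and 12 sites in control, 4, 4 and 8 after OGD/R 1.5 h and 13, 12 and 12 after OGD/R 3 h. OGD/R 1.5 h lay below both other groups, which overlapped, with a difference from control of -7.33 sites, or -3.67 without neighbouring sites. Equal numbers did not mean equal sites. Control and OGD/R 3 h each listed 18 distinct sites, of which 12 and 13 were listed in no other group. Over all Slc genes this held for 109 of 143 control and 151 of 185 OGD/R 3 h sites. In control 9 of the 18 Slc5a1 sites lay in the CDS and 3 in the 3′ untranslated region. In OGD/R 3 h 2 lay in the CDS and 7 in the 3′ untranslated region. The site at chr5:33162522 had scores of 951, 590 and 144 in control, 28 and 22 in OGD/R 1.5 h replicates 1 and 2, and 20 in OGD/R 3 h replicate 2. Scores of the libraries in which it was called did not overlap between control and either OGD/R group. Slc2a2, the facilitative glucose transporter GLUT2, had 1 site in OGD/R 3 h replicate 1 alone.

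Carriers of fatty acids, bile acids and organic acids had 55 sites in 4 of 34 annotated genes. Slc27a4, the fatty acid transport protein FATP4, led the class, with 10, 7 and 7 sites in control, 3, 4 and 7 after OGD/R 1.5 h and 6, 5 and 11 after OGD/R 3 h. The groups overlapped. Of its 35 distinct sites, 25 lay in the 5′ untranslated or start codon region, but the positions were mostly particular to a group, with 10 of 13 control sites, 9 of 10 OGD/R 1.5 h sites and 13 of 15 OGD/R 3 h sites listed in that group alone. Over all Slc genes the same held for 109 of 143, 90 of 126 and 151 of 185 sites.

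Slc16a10, placed in this class by its SLC16 family although it encodes the aromatic amino acid transporter TAT1, had 3, 2 and 4 sites in control, 0, 0 and 1 after OGD/R 1.5 h and 8, 6 and 8 after OGD/R 3 h. The 3 groups did not overlap, and the order was that of Slc6a8. At a score of at least 10 the difference between OGD/R 3 h and control was 2.33 in place of 4.33. Its only OGD/R 1.5 h site was the one at chr10:40037269 shown above. That site held the single Slc score at the cap, 1000 in control replicate 1, beside 50 and 693 in the other control libraries, 113 in OGD/R 1.5 h, and 69 and 57 in OGD/R 3 h. Slc16a1, the lactate and monocarboxylate carrier MCT1, had 0 sites in control, 1, 1 and 2 after OGD/R 1.5 h and 1, 2 and 2 after OGD/R 3 h. Slc51a, a subunit of the basolateral bile acid exporter, had 1 site in OGD/R 3 h replicate 2.

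Inorganic ion carriers held fewer sites in both OGD/R groups, with 12, 16 and 12 in control, 8, 9 and 8 after OGD/R 1.5 h and 7, 6 and 7 after OGD/R 3 h. The class had 10 genes of 58 annotated with 40 sites, and its genes differed in direction. Slc12a2, the sodium, potassium and chloride cotransporter NKCC1, had 0 sites in control, 0, 1 and 1 after OGD/R 1.5 h and 5, 4 and 5 after OGD/R 3 h. Its difference of 4.67 sites became 0.333 at a score of at least 10 and 1.67 without neighbouring sites. Slc26a2, a sulfate transporter, had the reverse order, with 5, 4 and 4, then 1, 2 and 2, then 0 in each library. Its difference of -4.33 between OGD/R 3 h and control became -0.667 without neighbouring sites. That between OGD/R 1.5 h and control turned positive. Without Slc12a2 the class differed by -11.33 sites between OGD/R 3 h and control in place of -6.67.

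Slc9a3, or NHE3, the sodium-proton exchanger of the apical membrane of absorptive cells, had 3 sites in each control library, 0 in OGD/R 1.5 h and 1 in OGD/R 3 h replicate 2. Slc4a4, the sodium bicarbonate cotransporter NBCe1, had 1, 6 and 1 sites in control, 2, 2 and 1 after OGD/R 1.5 h and 0 after OGD/R 3 h. With GENCODE in place of RefSeq transcripts its mean difference between OGD/R 3 h and control was 1 in place of -2.67. The anion exchangers Slc26a3 and Slc26a6 and the phosphate transporter Slc34a2 had 2, 4 and 1 sites, with at most 1 in any library.

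Slc9a3r1 is named after Slc9a3 but encodes NHERF1, a scaffold that binds carriers and is no carrier itself. It had 1, 3 and 1 sites in control, 2, 3 and 2 after OGD/R 1.5 h and 7, 8 and 9 after OGD/R 3 h, the last above both other groups. Of its 20 sites 11 lay in the CDS. One of these 20 sites sits in 40 bases that match a further place in the genome once every cytosine is read as thymine.

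Metal carriers had 9, 10 and 8 sites in control, 7, 5 and 9 after OGD/R 1.5 h and 3, 4 and 4 after OGD/R 3 h, in 5 of 32 annotated genes. Slc39a7, the zinc transporter ZIP7 of the endoplasmic reticulum and Golgi, led with 11 sites, all in the 5′ untranslated or start codon region, and its groups overlapped, at 3 per control library, 3 to 4 in OGD/R 1.5 h and 2 to 3 in OGD/R 3 h. Slc39a1, the zinc importer ZIP1, had 4, 4 and 2 sites in control, 2, 1 and 1 after OGD/R 1.5 h and 0 after OGD/R 3 h. Its difference of -3.33 between OGD/R 3 h and control became -0.667 at a score of at least 10 and -0.333 without neighbouring sites. The 40 bases around 1 of its 7 sites match a further place in the genome when cytosine is read as thymine. Slc30a4, a zinc exporter, had 2, 2 and 3 sites in control, 1, 0 and 2 after OGD/R 1.5 h and 1 in each OGD/R 3 h library. When sites with a neighbour within 10 nt were left out, its mean was 1 site higher in OGD/R 3 h than in control. The intestinal zinc importer Slc39a4 had 1 site, in OGD/R 3 h replicate 2.

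Mitochondrial carriers had 7, 4 and 4 sites in control, 6, 10 and 7 after OGD/R 1.5 h and 11, 12 and 9 after OGD/R 3 h, so that OGD/R 3 h lay above control. They were the class with the highest share of annotated genes with a site among the carriers, 10 of 47 (21.3%). Slc25a3, the phosphate carrier, had 1 site in each control library, 5, 8 and 5 in OGD/R 1.5 h and 7, 6 and 5 in OGD/R 3 h, and both OGD/R groups lay above control. At a score of at least 10 the differences were 1 for OGD/R 1.5 h in place of 5 and 3 for OGD/R 3 h in place of 5. Without Slc25a3 the class differed between OGD/R 3 h and control by 0.667 sites in place of 5.67.

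Slc25a1, the citrate carrier, had 2, 3 and 2 sites in OGD/R 3 h and 0 elsewhere. At a score of at least 10 its difference between OGD/R 3 h and control was 0.667 in place of 2.33. Slc25a44, a carrier of branched-chain amino acids, had 2, 1 and 2 sites in control and 0 elsewhere. Its difference of -1.67 between OGD/R 3 h and control became -0.333 at a score of at least 10, and also without neighbouring sites. The ADP/ATP carriers Slc25a4 and Slc25a5 had 2 and 5 distinct sites. All OGD/R 3 h libraries held 2 Slc25a5 sites. With cytosine read as thymine, a stretch of 40 bases matched up to 4 genome places at 4 of its 5 sites. Whether longer reads of this gene could be told apart from those of copies was not tested.

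Nucleotide sugar carriers and their relatives had 13, 11 and 12 sites in control, 8, 4 and 6 after OGD/R 1.5 h and 7, 5 and 4 after OGD/R 3 h, with both OGD/R groups below control. Without Slc35g1 the class differed from control by -2 sites in OGD/R 1.5 h in place of -6, and by -2.33 in OGD/R 3 h in place of -6.67. Slc35g1, a member of this family, had 9, 6 and 8 sites in control, 4, 3 and 4 after OGD/R 1.5 h and 4, 3 and 3 after OGD/R 3 h, 13 of its 16 distinct sites in the start codon region. Slc35f5 had 3 sites in each control library, 2, 1 and 1 in OGD/R 1.5 h and 0 in OGD/R 3 h, all in the start codon region. In both genes control lay above each OGD/R group. At a score of at least 10 the difference between OGD/R 3 h and control was -2 for Slc35g1 in place of -4.33, and -1 for Slc35f5 in place of -3.

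In the class of nucleosides, vitamins and other solutes, control libraries held 0, 2 and 1 sites, and 2 genes held most of the rest, each in 1 OGD/R group. Slc44a1, a choline transporter, had 0 sites in control, 5, 8 and 4 after OGD/R 1.5 h and 2 in OGD/R 3 h replicate 2. Its difference of 5.67 sites between OGD/R 1.5 h and control became 0.667 at a score of at least 10. Slc23a4, a rodent nucleobase transporter, had 7, 6 and 2 sites in OGD/R 3 h and 0 in all other libraries, all 11 distinct sites in the 5′ untranslated region and 9 of them in 1 run of 35 nt. Only 1 of these 11 was called in all 3 OGD/R 3 h libraries, with scores of 3, 2 and 0, and at a score of at least 10 the difference from control was 1 in place of 5. Slc28a2, a nucleoside transporter, had 1 site in OGD/R 3 h replicate 3. The class of organic ions and vesicular transmitters, with 41 annotated genes, had 1 site in all, in Slc17a4 in control replicate 2.

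To count such separations over the whole set, a gene was called when every library of a group held more, or fewer, sites than every library of the other group. Between OGD/R 3 h and control, 11 of 51 Slc genes with a site in either group held more (21.6%) and 13 fewer (25.5%). Over all 2267 genes with a site in these groups the shares were 18.6% and 18.7%. Between OGD/R 1.5 h and control, 6 of 46 Slc genes held more (13%) and 12 fewer (26.1%), beside 8.55% and 15.1% of all 2328 genes. Between the OGD/R groups, 12 of 46 Slc genes held more after 3 h and 8 fewer (26.1% and 17.4%), beside 19.9% and 13.4% of all 2189 genes. Sites in 1 or more libraries also chose the Slc genes, the comparisons share libraries, and the shares of the Slc genes were not tested against the rest.

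Genes called in both comparisons with control included Slc12a7, Slc25a44, Slc26a2, Slc35f5, Slc35g1, Slc7a15 and Slc9a3 with fewer sites in each OGD/R group, and Slc16a1 and Slc25a3 with more. Slc6a8 and Slc16a10 had fewer after 1.5 h and more after 3 h. Slc12a7 and Slc7a15 had only 1 site in each control library. Without neighbouring sites, the mean of Slc26a2 was higher in OGD/R 1.5 h than in control. Both comparisons use the same control libraries. The share of all genes called in both was not counted, so these genes are a description only. Other membrane transport genes are given for comparison. A site was listed in 0 of 14 organic anion carriers of the Slco family, 5 of 50 ABC transporters, 15 of 67 ATPase pumps, 1 of 11 aquaporins and 3 of 138 voltage-gated channels.

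Positions within Slc mRNAs differed from those in other mRNAs in that they lay closer to the 5′ end. Of the 398 Slc sites, 85 lay in the 5′ untranslated region, 161 within 100 nt of the start codon, 89 in the CDS, 25 within 100 nt of the stop codon and 38 in the 3′ untranslated region. Per library, the start codon region held 47.2 ± 3.40% of Slc sites in control, 41.8 ± 3.40% in OGD/R 1.5 h and 42.2 ± 1.43% in OGD/R 3 h (SD, n = 3 libraries). The same region held 27.6 ± 1.89%, 22.9 ± 1.63% and 30.8 ± 2.35% of the sites of other mRNAs. The CDS held 17 ± 4.91%, 23.3 ± 3.79% and 18.9 ± 1.57% of Slc sites and 51.2 ± 2.44%, 58.2 ± 2.13% and 47.3 ± 2.84% of other sites. In each group, every library had a higher share in the start codon region and a lower one in the CDS for Slc than for other mRNAs.

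Slc6a8 carried 39 of the 85 sites in 5′ untranslated regions. Without it, that region held 13.6% of the remaining 339 sites and the start codon region 42.8%. At least 1 site in the 5′ untranslated or start codon region was found in 36 of the 56 genes. Of the 27 genes with 4 or more sites, Slc23a4, Slc26a6, Slc30a4, Slc35f5, Slc39a7, Slc3a1 and Slc7a9 had all of them there, and 5, among them Slc25a5, Slc35c2, Slc3a2 and Slc43a2, had none there. The first exon held 218 of the 398 sites (54.8%). The median Slc site was 290 nt from the 5′ end of its mRNA in control, 346 nt in OGD/R 1.5 h and 483 nt in OGD/R 3 h, compared with 748.5, 885 and 723 nt in other mRNAs. Without Slc6a8 the Slc medians were 265.5, 346 and 396 nt.

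**Figure D3:**
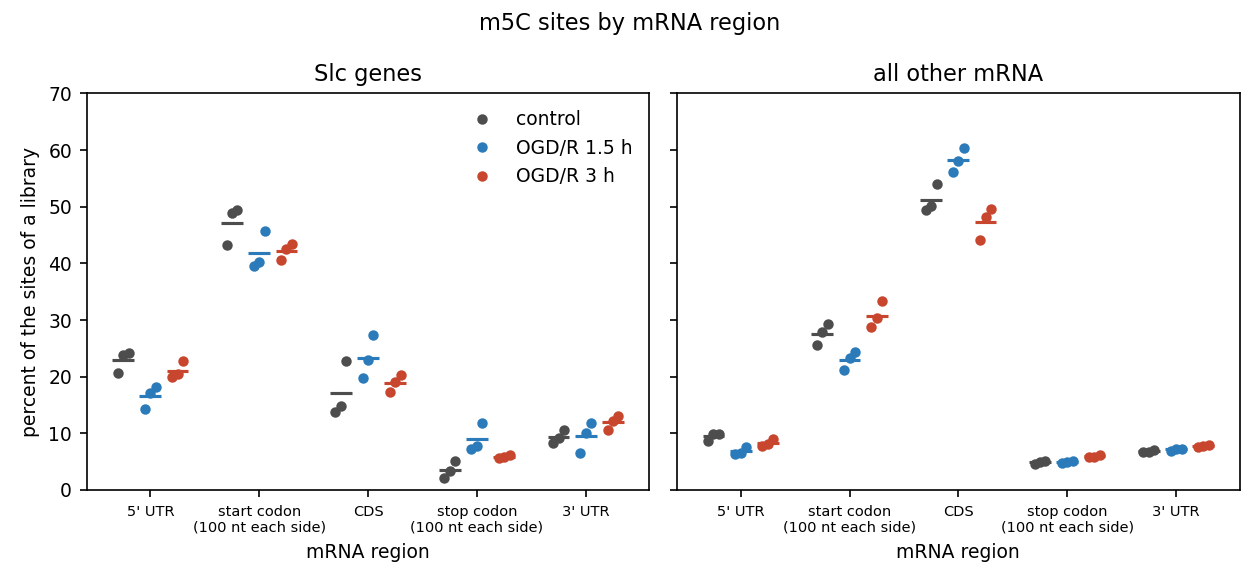
Share of the sites of a library in each mRNA region, in percent, for Slc mRNAs (left) and all other mRNAs (right); points are the 3 libraries of each group in order of value, and lines are means. The start codon region held 39.5% to 49.5% of Slc sites and the CDS 13.7% to 27.3%, compared with 21.2% to 33.4% and 44.1% to 60.4% in other mRNAs.

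Densities were taken over 1000 cytosines of those transcripts that had a site in the group, so the groups have different denominators. From -100 to -1 nt before the start codon, Slc mRNAs held 33 sites per 1000 cytosines in control, 20.8 after OGD/R 1.5 h and 29.9 after OGD/R 3 h, and from 0 to 99 nt 29.3, 29.9 and 32.5. From 200 to 299 nt the density was 0 in control, 7.73 after OGD/R 1.5 h and 0 after OGD/R 3 h. The window from -200 to -101 nt held 15.3, 15 and 42.8 sites per 1000 cytosines. Of its 29 sites in OGD/R 3 h, 12 were in Slc6a8 and none of its 10 sites in control was, and Slc23a4 was listed there in OGD/R 3 h alone.

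**Figure D4:**
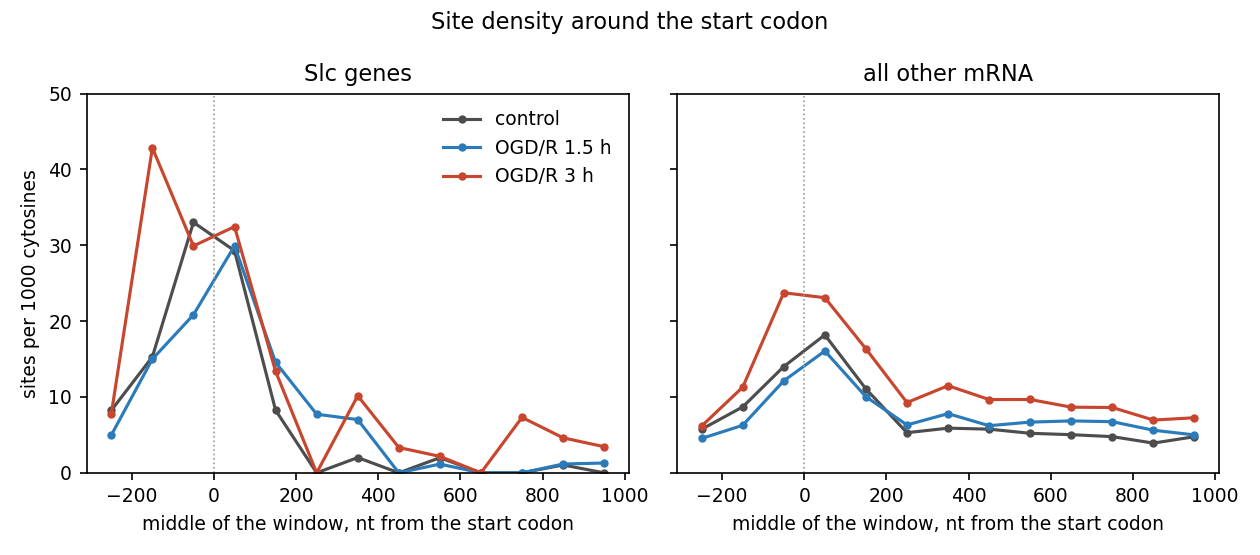
Sites per 1000 cytosines in windows of 100 nt around the start codon (x axis, middle of the window in nt), in the union of the libraries of each group, for Slc mRNAs (left) and all other mRNAs (right). Slc densities were highest from -100 to 99 nt in control, and the window from -200 to -101 nt reached 42.8 in OGD/R 3 h.

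**Figure D5:**
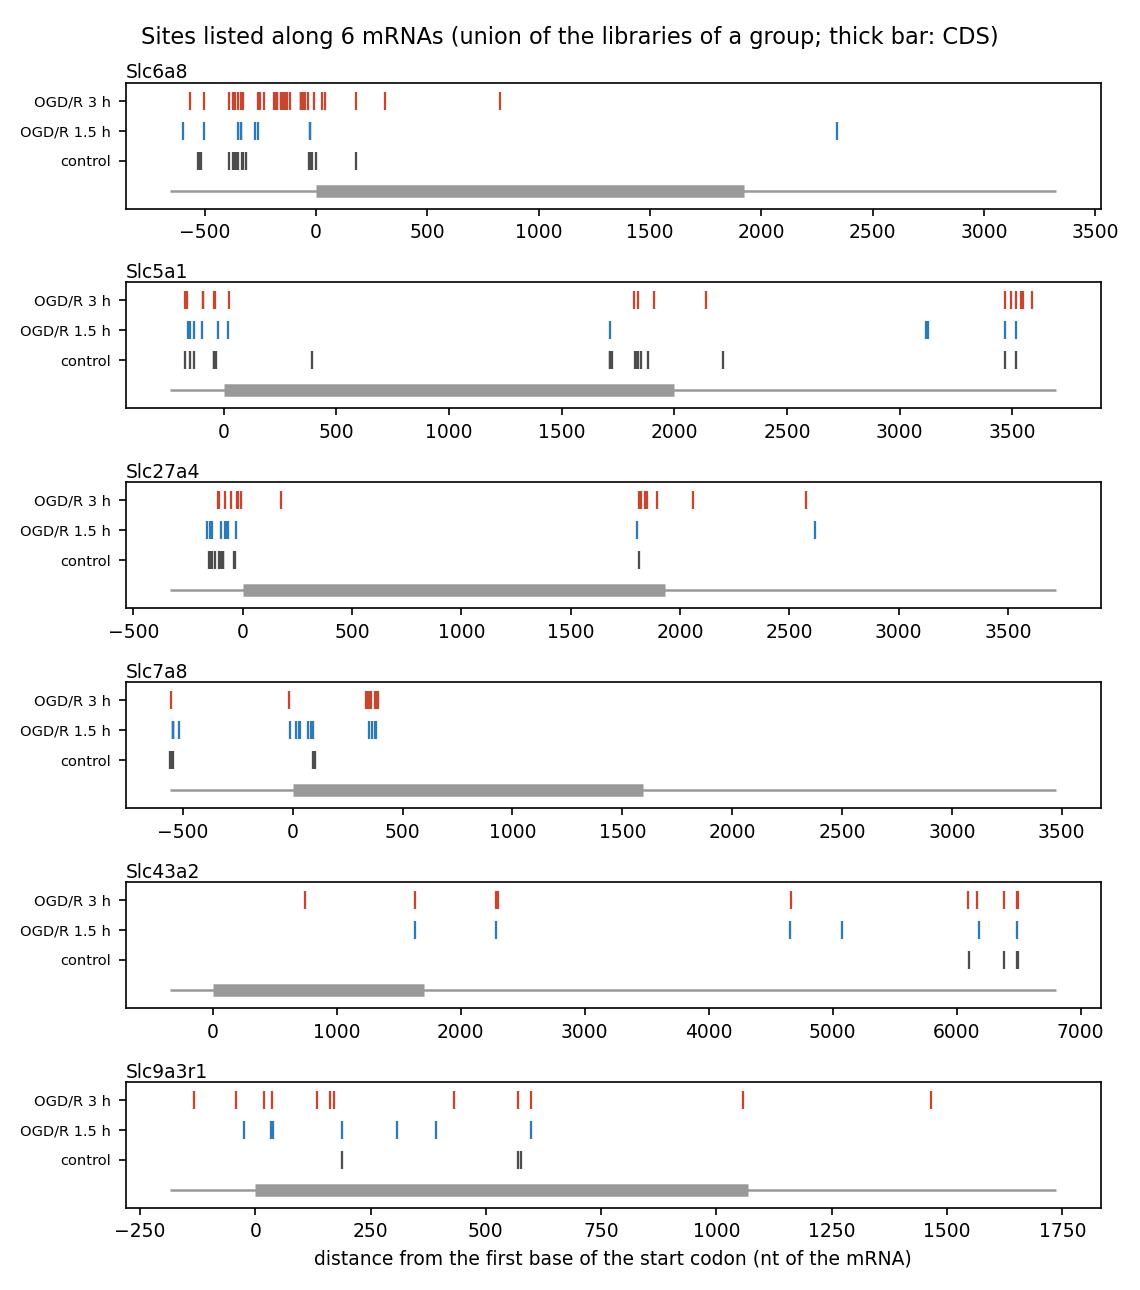
Listed sites along the mRNAs of Slc6a8, Slc5a1, Slc27a4, Slc7a8, Slc43a2 and Slc9a3r1, as distance in nt from the first base of the start codon; each tick is a site listed in any library of the group, and the thick bar is the CDS. Of 59 Slc6a8 sites 39 lay in the 5′ untranslated region, of 39 Slc5a1 sites 10 in the 3′ untranslated region, and of 16 Slc43a2 sites 14 there.

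Context was read from the bases after the cytosine, with H for A, C or T. In Slc mRNAs CHH made up 33.6 ± 2.66% of the sites of a library in control, 40.8 ± 0.779% in OGD/R 1.5 h and 44.4 ± 2.93% in OGD/R 3 h (SD, n = 3 libraries). CHG went the other way, at 44.3 ± 1.79%, 39.4 ± 1.86% and 31.4 ± 4.01%, and in both contexts no library of a group reached the range of another. Over the distinct sites of a group, however, CHG was 39.9% in control, 39.7% in OGD/R 1.5 h and 33% in OGD/R 3 h. Without Slc6a8 these shares were 40.5%, 41.4% and 34.7%. CG was 22.1 ± 2.5%, 19.8 ± 2.52% and 24.2 ± 2.68%, where all groups overlapped. Other mRNAs had CHH at 33.3 ± 0.450%, 38.1 ± 1.19% and 41.7 ± 1.21%, in the same order. Their CHG share was 39.2 ± 0.268%, 39.9 ± 0.319% and 37.4 ± 0.659%, and their CG share 27.5 ± 0.51%, 22 ± 0.883% and 20.9 ± 0.692%, lower in both OGD/R groups than in control. Against the cytosines these Slc transcripts hold, CG sites were 2.51 times as frequent in control, 1.85 times in OGD/R 1.5 h and 2.16 times in OGD/R 3 h, and CHH sites 0.537, 0.632 and 0.686 times. In other mRNAs CG sites were 2.40, 1.95 and 1.78 times as frequent and CHH sites 0.541, 0.619 and 0.679 times. These cytosines were counted over whole transcripts. In control, the 5′ untranslated and start codon regions held 4.94% and 6.70% of the Slc cytosines but 21.0% and 47.6% of the distinct Slc sites. No background matched by region was taken, so context and position cannot be told apart in these ratios.

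Single genes differed from each other in context. Of the 59 sites in Slc6a8, 20 were CG, 17 CHG and 22 CHH, whereas Slc43a2 had 1 CG site among 16, Slc25a3 1 among 14, and Slc44a1 1 among 11. Slc3a2 had 4 CG sites among 7. Guanine made up 41.6% of the bases within 10 nt of Slc sites in control, 35.7% in OGD/R 1.5 h and 34.3% in OGD/R 3 h, and cytosine 23.9%, 26.3% and 32.3%. Other mRNAs had the same order, with guanine at 38.3%, 35.6% and 33.6% and cytosine at 19.9%, 21.4% and 25.1%. A cytosine followed by NGGG, the form in which NSUN2 sites are usually written, was found at 8 of 143 Slc sites in control, 5 of 126 in OGD/R 1.5 h and 6 of 185 in OGD/R 3 h. These are 5.59%, 3.97% and 3.24%, beside 2.47%, 2.27% and 2.26% of all cytosines of these transcripts. In other mRNAs the shares were 3.74%, 3.25% and 3.17% of sites, beside 1.95%, 1.95% and 1.98% of cytosines. Here too the cytosines were those of whole transcripts, not matched by region. The motif CTCCA, read with the site at its first base, was found at 0, 1 and 0 Slc sites. Both were searched on the strand of the mRNA only, as a description of the letters.

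Slc sites recurred within a group and seldom between groups. Of the Slc sites listed in either of 2 control libraries, 53.6% to 58.1% were in both. For OGD/R 1.5 h this was 41.7% to 45.5%, and for OGD/R 3 h 51.2% to 60.8%. Between groups the range was 3.63% to 9.15%. Of the 398 sites, 109 were listed only in control, 90 only in OGD/R 1.5 h, 151 only in OGD/R 3 h, and 8 in all 3. These are 27.4%, 22.6%, 37.9% and 2.01%, beside 23.3%, 24.1%, 33.2% and 3.65% of the 17661 sites in other mRNAs. For genes the overlap was larger, with 15 of 56 Slc genes listed in all groups, 10 in control alone, 5 in OGD/R 1.5 h alone and 10 in OGD/R 3 h alone. Sites in other mRNAs were shared by 39.6% to 40.5% within control and by 6.60% to 10.8% between groups.

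Slc sites called in every library of a pair of groups were few, so that scores could seldom be compared. Between OGD/R 3 h and control 5 such sites existed, with scores lower in every OGD/R 3 h library at 2 and higher at 0. Of 245 such sites in other mRNAs, 15.1% were lower and 11% higher. In Slc43a2, the site at chr11:75577151 had scores of 262, 242 and 312 in control and 101, 86 and 57 after OGD/R 3 h, and the site at chr11:75577267, which is 9 nt from the site called in all groups, had 138, 77 and 104 and then 152, 157 and 107. Between OGD/R 1.5 h and control 8 sites existed, with scores lower at 1 and higher at 0, beside 13.6% lower and 9.44% higher of 286 in other mRNAs. The median score of the Slc sites of a library was 12.5 ± 1.32 in control, 9.83 ± 4.54 in OGD/R 1.5 h and 12.7 ± 2.08 in OGD/R 3 h (SD, n = 3 libraries), with overlapping libraries.

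The Slc genes of absorptive epithelium, taken as a list, held 33 to 40 sites per control library, 22 to 25 per OGD/R 1.5 h library and 36 to 43 per OGD/R 3 h library. They numbered 9 genes with a site in control, 8 after OGD/R 1.5 h and 15 after OGD/R 3 h over all libraries of the group. Per library these were 8 to 9, 5 to 6 and 9, and 9 of the 15 had a site in a single OGD/R 3 h library. OGD/R 1.5 h lay below both other groups, as the intestinal markers together did. In OGD/R 3 h these markers together held more than in control, while the Slc list overlapped with control. The list was chosen with earlier results of these data known. The 13 members with 0 sites included the fructose transporter Slc2a5, the ileal bile acid transporter Slc10a2 and the iron carriers Slc11a2 and Slc40a1.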

How the data were processed

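Sites of m5C were read from 9 bisulfite libraries, 3 in each of the 3 groups. The 9 mock libraries were not analysed here. Per the paper's methods, the authors trimmed reads with Cutadapt (version 1.9.3 in the submitters' processing notes), used meRanGh to align them to mm10 and meRanCall to call sites, keeping credible sites by level and coverage. In the deposited files every site has a score, with no normalization for depth, and neither level nor coverage can be recovered, so intervals were not computed. The role of the mock libraries in the calls is not given in the sources used here.

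Sites were placed with Python 3.11.15, pandas 2.3.3, numpy 2.4.6 and pysam 0.24.0 on RefSeq mRNAs of GRCm38 (mm10), or mitochondrial coding genes, on their strand. The transcript with the longest CDS that holds the site gave its region, with 100 nt on either side of the start and stop codons. Positions are counted from 1. Figures used matplotlib 3.10.9. Counting was tested on simulated data. Coverage of the part of a supplementary table that was held gave the check of replicates, for control and OGD/R 3 h. OGD/R 1.5 h was treated alike.

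The members, classes and lists were chosen with earlier results of these data known. Classes follow the Slc family number, and those of Slc9a3r1 and Slc49a4 were set after the members were known. Genes named are the 8 with most sites, the 3 with the largest difference in each direction and each OGD/R group against control among genes whose libraries do not overlap, the gene with most sites in each class, genes with a site called in all 9 libraries, and genes with a site in the 3 Slc lists. Others were named after their values were seen. Alternatives were sites in at least 2 or all 3 libraries of a group, a score of at least 10, sites with no other within 10 nt, GENCODE, 50 nt around the codon, each library left out, and the gene with most sites left out. The last was chosen after seeing the data for the Slc, start codon and CG shares. Some single genes are counted in the totals but not reported here by name.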

Additional observations from a re-analysis of the deposited data

Results flagged for a closer look

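The number of Slc sites differed in direction between the OGD/R groups, since every OGD/R 3 h library held more sites than every control library and every OGD/R 1.5 h library fewer. Without sites that had a neighbour within 10 nt, the log2 ratio of OGD/R 1.5 h to control was -0.00905 in place of -0.33. The mean of OGD/R 3 h lay 45.7 sites above that of OGD/R 1.5 h. The same pattern was found in Slc6a8, with a difference of 22 sites, and in Slc16a10, with 7. None of these differences was tested, because each group counts as 1 sample.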

How the results depend on the processing

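Values are differences from control, in log2 for sites and genes with a site, in percentage points for shares, and in mean sites per library for classes and genes, and the causes of the shifts were not tested. For OGD/R 3 h, the Slc share of mRNA sites was 0.0795 and became -0.359 with sites in all 3 libraries, -0.291 at a score of at least 10, 0.612 without clustered sites and -0.195 without Slc6a8. Its log2 ratio of sites was 0.27 at a score of at least 10, 0.50 without clustered sites and 0.17 without Slc6a8. The start codon share was -4.98 and became -0.982 with sites in at least 2 libraries, 8.97 with all 3 and 0.520 without clustered sites. The CG share was 2.14 and became 11.3 with all 3 libraries and 5.94 at a score of at least 10. At that score 6 genes held more sites and 5 fewer without overlap, in place of 11 and 13. By class, the difference became 6.67 for amino acids without Slc6a8, -11.3 for inorganic ions without Slc12a2, 0.667 for mitochondrial carriers without Slc25a3, 0.667 for nucleosides and vitamins without Slc23a4, and -2.33 for nucleotide sugars without Slc35g1. Slc30a4 turned to 1 without clustered sites and Slc4a4 to 1 with GENCODE.

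For OGD/R 1.5 h, the Slc share was -0.304 and turned to 0.0682 with sites in at least 2 libraries, and was -0.491 with all 3, -0.680 at a score of at least 10, -0.0993 without clustered sites and -0.175 without Slc6a8. The log2 ratio of sites was -0.73 with all 3 libraries, -0.65 at a score of at least 10 and -0.00905 without clustered sites, and that of genes -0.55 with all 3 and -0.037 without clustered sites. With all 3 libraries the start codon share was 6.60 in place of -5.40 and the CG share 3.59 in place of -2.28. At a score of at least 10, 2 genes held more sites and 7 fewer without overlap, in place of 6 and 12. By class, the difference became 3 for amino acids without Slc6a8, -2.33 for mitochondrial carriers without Slc25a3, -2 for nucleotide sugars without Slc35g1 and 0 for sugars without Slc5a1. Slc26a2 turned to 1 without clustered sites.

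With each library left out in turn, the log2 ratio of Slc sites stayed between 0.32 and 0.39 for OGD/R 3 h and between -0.37 and -0.29 for OGD/R 1.5 h. No paired analysis was possible because the libraries of a group were counted as 1 sample and no test was run. The site lists do not give depth, and unlisted sites may be unmethylated or too shallow, so site numbers also follow coverage. Coverage was held for part of the sites of control and OGD/R 3 h and served only for the check of replicates. Levels were not compared.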
